A study of Homo sapiens with 6 samples.

Results

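Of the 58735 genes in the expression table, 10 encode aldehyde dehydrogenases that do not belong to the retinal-oxidising group and were chosen by name: ALDH2, ALDH1B1, ALDH3A1, ALDH3A2, ALDH3B1, ALDH4A1, ALDH7A1, ALDH9A1, ALDH16A1 and ALDH18A1. All 10 were in the table. With a mean FPKM (fragments per kilobase of gene, scaled to the depth of the library) of at least 1 over the 6 libraries, 9 could be tested, and ALDH2 fell below that limit.

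Aldehyde dehydrogenases oxidise aldehydes to carboxylic acids with NAD+ or NADP+, through a cysteine in the active site that binds the aldehyde. Reactive aldehydes arise from lipid peroxidation, from sphingolipid and amino acid breakdown and from alcohol. AKR1B10 is an aldo-keto reductase that clears many of the same aldehydes by the other route, reducing them to alcohols with NADPH. Silencing it therefore raises the question of whether the transcripts of the oxidising enzymes differ between cells with and without it.

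The RNA came from PC9-BrM3, a brain-metastatic derivative that the study had obtained from the human lung adenocarcinoma line PC9 by repeated passage through mouse brain. In 3 libraries AKR1B10 had been knocked down with shRNA vector 1 (BrM3-shAKR1B10), and 3 libraries carried a negative control shRNA and are given the genotype WT in the labels (BrM3-shNC). Both shRNAs were delivered in the LV2 lentiviral vector, and all cells were kept in routine culture in RPMI1640 with serum. The study names no drug treatment for the sequenced cells. A single shRNA was sequenced, so an effect of that shRNA on other genes and an effect of AKR1B10 loss cannot be told apart. The study speaks in general of independent experiments, but neither it nor the labels say for the RNA-seq that the libraries of a group came from separate cultures, so p-values measure the spread between these samples, which may be technical.

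The knockdown was seen first in its target: AKR1B10 averaged 782 ± 14.6 FPKM (SD, n = 3) with the control shRNA and 109 ± 1.52 FPKM with the AKR1B10 shRNA, a difference of -2.85 on the log2 scale (limma, Benjamini-Hochberg adjusted p = 1.6e-07). Each library held between 16964504 and 18709028 reads on genes, and no library stood apart from its group. The epithelial markers EPCAM, CDH1, KRT7, KRT8, KRT18 and KRT19 had group means between 46.4 and 939 FPKM, whereas NKX2-1 and NAPSA, which mark many lung adenocarcinomas, stayed below 1 FPKM. EPCAM (-0.24), KRT7 (-0.19) and CDH1 (0.16) had log2 differences with an adjusted p under 0.05, none past 0.5. Of 11 markers of blood, endothelial, fibroblast and neural cells, 9 had a mean below 1 FPKM, among them PTPRC, PECAM1 and GFAP, and CDH5 and COL1A1 lay between 1.14 and 1.98 FPKM. Both were called, the endothelial CDH5 higher (log2 fold change 0.65, adjusted p = 0.0039) and the fibroblast COL1A1 lower (-0.67, adjusted p = 0.00319). The summed level of the 11 markers lay between 3.64 and 3.68 FPKM in BrM3-shAKR1B10 compared with 3.86 to 4.16 FPKM in BrM3-shNC, and the part of other cells in the results was not tested.

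Because the member with the largest difference, ALDH3A1, belongs to the ALDH3 subfamily, and because ALDH2 and ALDH1B1 are near relatives with different levels, the coding sequence around the active-site cysteine of these genes is shown first. The codon was located with the cysteine signature of the family in GENCODE 29 transcripts (GRCh38). Each line holds 51 bases of the coding strand from 5′ to 3′, with the cysteine codon in capitals.
ALDH3A1: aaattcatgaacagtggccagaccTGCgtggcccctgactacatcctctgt
ALDH3A2: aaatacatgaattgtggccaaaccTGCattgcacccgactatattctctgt
ALDH3B1: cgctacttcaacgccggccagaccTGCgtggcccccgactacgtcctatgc
ALDH3B2: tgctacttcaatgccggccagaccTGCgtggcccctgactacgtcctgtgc
ALDH2: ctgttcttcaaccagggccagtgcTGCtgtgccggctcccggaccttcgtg
ALDH1B1: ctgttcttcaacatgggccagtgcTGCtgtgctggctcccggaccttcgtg
These windows lie at chr17:19741144-19741194 on the minus strand in exon 6 of 11 for ALDH3A1, and at chr17:19657761-19657811 on the plus strand in exon 5 of 11 for ALDH3A2. Those of ALDH3B1 and ALDH3B2 lie at chr11:68021628-68021678 on the plus strand and chr11:67665478-67665528 on the minus strand, each in exon 7 of 10. The ALDH2 window lies at chr12:111792630-111792680 in exon 9 of 13, and the ALDH1B1 window at chr9:38396679-38396729 in exon 2 of 2, both on the plus strand.

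The ALDH3A1 and ALDH3A2 windows differed at 10 of 51 bases, and the whole coding sequences shared 67.6% of 1349 aligned bases. ALDH3B1 and ALDH3B2 differed at 4 of 51 bases, with 86.8% identity over 1155 aligned bases. The ALDH2 and ALDH1B1 windows differed at 3 of 51 bases, with 73.2% identity over the 1539 aligned bases. The signature was also found in ALDH4A1 and ALDH9A1. It had no match in the coding sequences of ALDH7A1, ALDH16A1 and ALDH18A1, and this says only that these residues do not follow the pattern searched. ALDH16A1 is known in mammals for lacking the usual catalytic cysteine.

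Silencing of AKR1B10 went with higher ALDH3A1 and ALDH3A2, lower ALDH16A1 and no difference that passed the test in the other 6 members tested. A gene was counted as called when its adjusted p was under 0.05 and its log2 fold change beyond 0.5 in either direction. On that rule, 1 of the 9 tested members was called higher (ALDH3A1), where 5.83% of the 13150 genes tested were called higher. None was called lower by limma, where 7.45% of all genes were called lower. That count of 0 was the same with limma's voom on recovered reads, and 2 members were lower at an unadjusted p under 0.05 (1 with voom), neither past the fold threshold. At an adjusted p under 0.05 with no fold threshold, 2 members were higher (ALDH3A1 and ALDH3A2) and 1 was lower (ALDH16A1), beside 19.4% and 23.1% of all genes tested. The median log2 fold change of the 9 members was 0.04, and that of all genes tested was -0.01. The counts and the median of the members lay near those of all genes tested, and what differed were single genes.

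**Figure D1:**
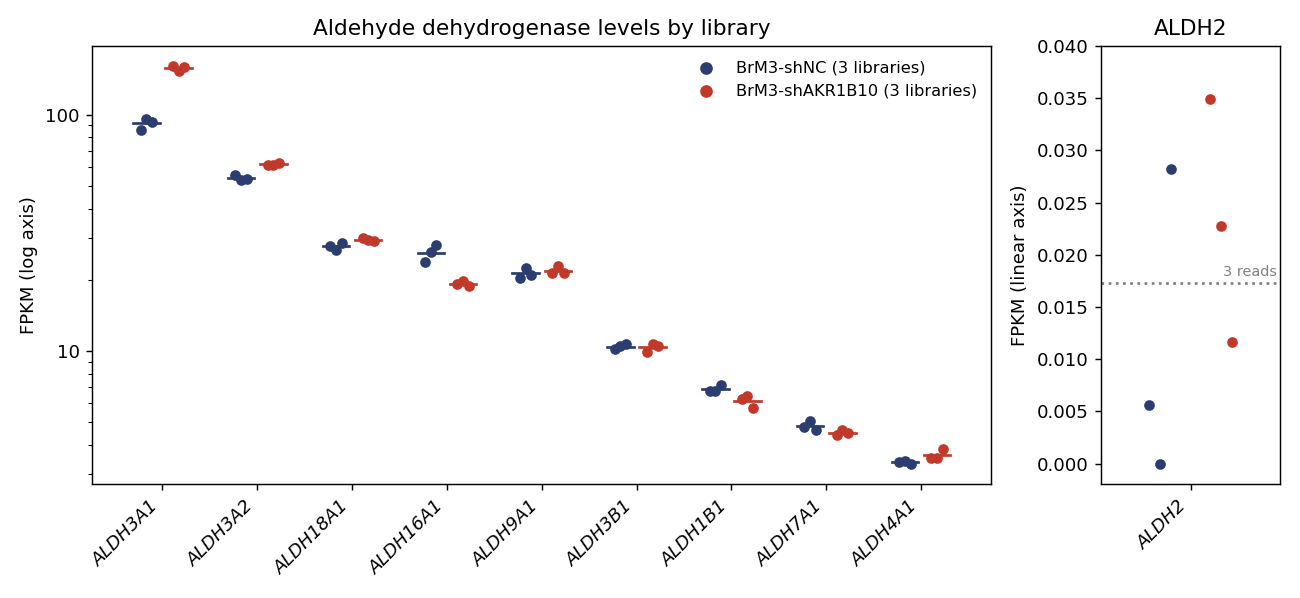
Level of each aldehyde dehydrogenase in every library, in FPKM on a log axis on the left and, for ALDH2, on a linear axis on the right; points are libraries, horizontal bars on the left are group means (n = 3), and the dotted line marks the mean FPKM of 3 reads. ALDH3A1 lies between 86.3 and 95.9 FPKM in BrM3-shNC and between 153.5 and 160.9 FPKM in BrM3-shAKR1B10, whereas the groups overlap for ALDH9A1, ALDH3B1 and ALDH2.

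ALDH3A1 (ENSG00000108602; chr17:19737984-19748943, minus strand) encodes a cytosolic enzyme that oxidises medium-chain and aromatic aldehydes, including 4-hydroxynonenal from lipid peroxidation. It was the most abundant member in both groups. The BrM3-shAKR1B10 libraries held 160.9, 153.5 and 159.6 FPKM, and the BrM3-shNC libraries 86.3, 95.9 and 93.1 FPKM. All 3 knockdown libraries lay above all 3 controls. The means were 158 ± 3.91 and 91.8 ± 4.92 FPKM (SD, n = 3 each), a rise of 72.2% with a 95% interval of 59.6 to 85.8%. On the log2(FPKM + 0.1) scale the difference was 0.78 (SE 0.0459, limma, adjusted p = 5.5e-05), which ranked 447 from the top among the 13150 genes tested. The value rested on 6206 to 11137 reads per library. In a bulk sample a change in the share of cells with the transcript and a change in RNA per cell cannot be told apart, and this holds for each member below.

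Counts of ALDH3A1 could include reads of AC005722.3, an annotated antisense gene that overlaps it, since the use of strand in counting is not given in the sources used here. AC005722.3 averaged 1.88 FPKM with a log2 fold change of 1.36 (limma, adjusted p = 0.0189), and 1.25% of the 50-base words of ALDH3A1 transcripts also occur in it in either orientation. Its part in the ALDH3A1 value was not tested.

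ALDH3A2 (ENSG00000072210; chr17:19648136-19677598, plus strand) encodes the fatty aldehyde dehydrogenase of the endoplasmic reticulum, which oxidises long-chain aldehydes from fatty alcohols and sphingolipids and is mutated in Sjögren-Larsson syndrome. Its levels were 61.1, 61.1 and 62.5 FPKM in BrM3-shAKR1B10 against 55.3, 52.7 and 53.5 FPKM in BrM3-shNC. The groups did not overlap. The means of 61.6 ± 0.811 and 53.9 ± 1.35 FPKM (SD, n = 3) differed by 14.3% (95% interval 8.51 to 20.3%), which passed the test (log2 fold change 0.19, limma, adjusted p = 0.00332) but lay below the fold threshold. ALDH3A1 and ALDH3A2 are neighbours on chromosome 17 with SLC47A2 between them. SLC47A2, a cation transporter gene, lies 690 bases from ALDH3A2 and 19005 bases from ALDH3A1, averaged 1.37 FPKM and differed by 0.50 on the log2 scale (adjusted p = 0.0262). ULK2, beyond ALDH3A1, was at -0.23 (adjusted p = 0.117).

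The ratio of ALDH3A1 to ALDH3A2 within a library is not changed by scaling a library with a single factor. It was 2.63, 2.51 and 2.55 in BrM3-shAKR1B10 and 1.56, 1.82 and 1.74 in BrM3-shNC. The means were 2.57 ± 0.06 and 1.71 ± 0.133 (SD, n = 3), and the groups did not overlap (two-sided exact permutation p = 0.1, the smallest that 3 against 3 libraries allow).

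ALDH3B1 (ENSG00000006534; chr11:68008578-68029282, plus strand), which acts on medium- and long-chain aldehydes, held 9.90, 10.7 and 10.5 FPKM in BrM3-shAKR1B10 against 10.1, 10.5 and 10.7 FPKM in BrM3-shNC. The groups overlapped, with a log2 fold change of -0.01 and a 95% interval of -7.57 to 7.09% in percent (adjusted p = 0.908). The sign of this small value turned under TPM scaling, quantile normalization and voom. Its close relative ALDH3B2, which is not among the 10 members, held 13.6, 14.5 and 15.2 FPKM against 8.15, 8.81 and 8.50 FPKM and was called higher (log2 fold change 0.76, SE 0.0544, limma, adjusted p = 0.00012). The ratio of ALDH3B2 to ALDH3B1 was 1.39 ± 0.0454 in BrM3-shAKR1B10 and 0.815 ± 0.0229 in BrM3-shNC (SD, n = 3; exact permutation p = 0.1). The windows shown above for these genes differ at 4 bases. Of the 50-base words, 1.09% of those in ALDH3B2 transcripts occur in ALDH3B1 and 0.512% of those in ALDH3B1 occur in ALDH3B2, and the part of shared reads in these values was not tested.

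ALDH2 (ENSG00000111275; chr12:111766887-111817529, plus strand), the mitochondrial enzyme that clears acetaldehyde, was at the limit of detection in these cells. Its read counts were 6, 4 and 2 in BrM3-shAKR1B10 and 1, 0 and 5 in BrM3-shNC, and 3 reads correspond to between 0.0168 and 0.0183 FPKM in these libraries. The groups overlapped, and at this depth no difference in ALDH2 was detectable. These limits cover counting error only.

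ALDH1B1 (ENSG00000137124; chr9:38392664-38398661, plus strand), the mitochondrial relative of ALDH2, was measured well above that limit. It held 6.26, 6.44 and 5.72 FPKM in BrM3-shAKR1B10 against 6.75, 6.75 and 7.17 FPKM in BrM3-shNC. The knockdown libraries all lay below the controls, but the log2 fold change of -0.16 did not pass the test (95% interval -19.0 to -1.76% in percent, limma, adjusted p = 0.0601). With protein-coding genes alone in the test, the adjusted p was 0.0417.

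ALDH16A1 (ENSG00000161618; chr19:49453169-49471048, plus strand) was the member that fell. The 3 BrM3-shAKR1B10 libraries held 19.2, 19.8 and 18.8 FPKM, and the BrM3-shNC libraries 23.8, 26.2 and 27.9 FPKM. All knockdown libraries lay below all controls. The means of 19.3 ± 0.532 and 26.0 ± 2.04 FPKM (SD, n = 3) differed by -25.6% (95% interval -32.8 to -17.8%), a log2 fold change of -0.43 (SE 0.0607, limma, adjusted p = 0.00191) that did not reach the fold threshold. AC010619.1, on the same strand, shares 4.86% of the 50-base words of ALDH16A1 transcripts and was listed at 0. PIH1D1 overlaps ALDH16A1 on the other strand and shares 2.12% of these words. PIH1D1 averaged 28.8 FPKM with a log2 difference of -0.22 (adjusted p = 0.00573), and its part in the ALDH16A1 value was not tested.

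ALDH18A1 and ALDH4A1 work on the same metabolite in opposite directions. ALDH18A1 (ENSG00000059573; chr10:95605929-95656706, minus strand) reduces glutamate to glutamate semialdehyde for proline and ornithine synthesis. It held 29.9, 29.4 and 29.1 FPKM in BrM3-shAKR1B10 against 27.7, 26.6 and 28.7 FPKM in BrM3-shNC. The groups did not overlap, but the log2 fold change of 0.09 did not pass the test (95% interval -0.00402 to 13.2% in percent, limma, adjusted p = 0.0981). It did pass under TPM scaling, quantile normalization and voom, with adjusted p of 0.0411, 0.0142 and 0.0136. ALDH4A1 (ENSG00000159423; chr1:18871430-18902781, minus strand) oxidises the semialdehyde back to glutamate in the breakdown of proline. It held 3.50, 3.53 and 3.85 FPKM in BrM3-shAKR1B10 against 3.38, 3.41 and 3.30 FPKM in BrM3-shNC, and the groups did not overlap. The log2 fold change of 0.10 did not pass the test (95% interval -2.77 to 18.7% in percent, adjusted p = 0.211). Reads on ALDH4A1 numbered 213 to 252 per library, and 37.6% of the words of its transcripts also belong to the overlapping gene AL080251.1, which was listed at 0, so its level is uncertain.

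ALDH7A1 (ENSG00000164904; chr5:126531200-126595418, minus strand), which oxidises aminoadipic semialdehyde in lysine breakdown, held 4.41, 4.61 and 4.47 FPKM in BrM3-shAKR1B10 against 4.73, 5.02 and 4.61 FPKM in BrM3-shNC. The highest knockdown library and the lowest control lay side by side, and the log2 fold change of -0.09 did not pass the test (95% interval -13.7 to 2.61% in percent, limma, adjusted p = 0.22). ALDH9A1 (ENSG00000143149; chr1:165662216-165698863, minus strand), which takes part in carnitine synthesis, held 21.3, 22.8 and 21.3 FPKM in BrM3-shAKR1B10 against 20.4, 22.5 and 21.0 FPKM in BrM3-shNC. Its groups overlapped, with a log2 fold change of 0.04 (95% interval -5.54 to 11.3% in percent, adjusted p = 0.593).

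The members spanned a wide range of levels per length of gene. In BrM3-shNC the order by mean FPKM was ALDH3A1, ALDH3A2, ALDH18A1, ALDH16A1, ALDH9A1, ALDH3B1, ALDH1B1, ALDH7A1, ALDH4A1 and ALDH2. ALDH18A1 and ALDH16A1 overlapped there, at means of 27.7 and 26.0 FPKM, and no other neighbours in that order did. In BrM3-shAKR1B10 no neighbours overlapped, and ALDH9A1 at 21.8 FPKM stood above ALDH16A1 at 19.3 FPKM, the reverse of their order in the controls. The length used for the normalization weighs on these ranks. ALDH7A1 drew 1400 to 1560 reads per library over 17970 bases, more reads than ALDH9A1 with 1238 to 1363 over 3308 bases, yet had the lower FPKM.

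**Figure D2:**
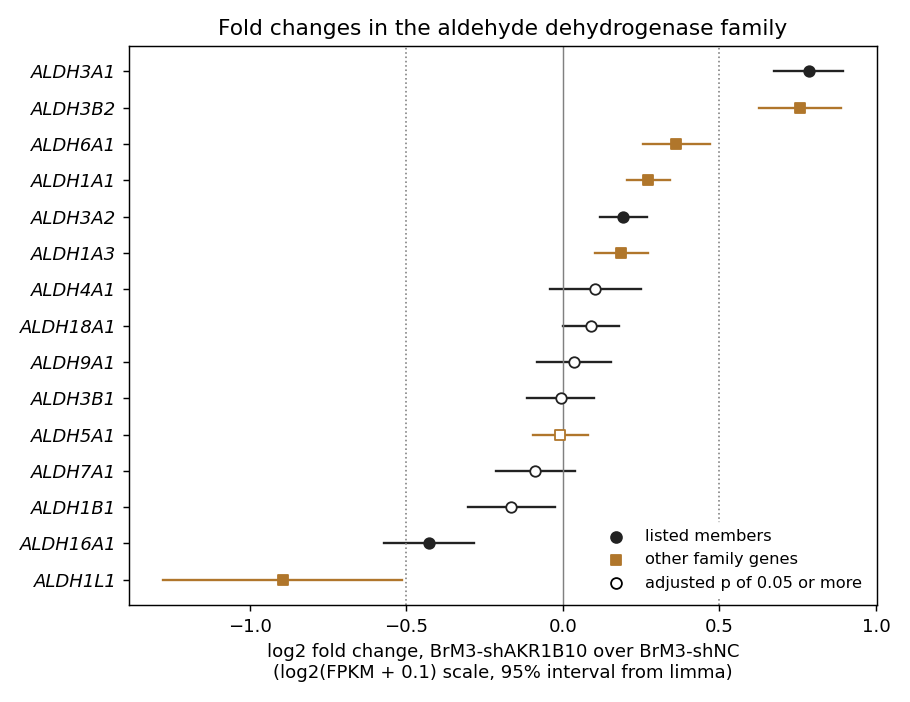
Log2 fold change of BrM3-shAKR1B10 over BrM3-shNC for the 9 tested members (black circles) and 6 other tested genes of the family (brown squares), with 95% intervals from limma on the log2(FPKM + 0.1) scale; filled symbols have an adjusted p under 0.05 and dotted lines mark the fold threshold of 0.5. ALDH3A1 at 0.78 and ALDH3B2 at 0.76 lie furthest to the right, and ALDH1L1 at -0.89 furthest to the left.

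Among 9 further genes of the family, 6 could be tested. At an adjusted p under 0.05, 4 were higher and 1 was lower, beside 19.4% and 23.1% of all genes tested. The median log2 fold change was 0.23 against -0.01 over all genes. ALDH3B2 was the one called higher past the fold threshold. ALDH1L1, which oxidises formyltetrahydrofolate in folate metabolism, was called lower at 0.726, 0.792 and 0.699 FPKM in BrM3-shAKR1B10 against 1.33, 1.54 and 1.52 FPKM in BrM3-shNC (log2 fold change -0.89, limma, adjusted p = 0.00489). It reached a mean of 1 FPKM through the control libraries alone, and with no filter on low values the adjusted p was 0.00704. Of the retinal-oxidising genes, named after their values were seen, ALDH1A1 was at 173 ± 0.925 FPKM in BrM3-shAKR1B10 against 143 ± 2.99 FPKM in BrM3-shNC (log2 fold change 0.27, adjusted p = 0.00055), above every one of the 10 members in each group. ALDH1A3 was at 22.3 ± 0.496 against 19.6 ± 0.488 FPKM (0.19, adjusted p = 0.00637). ALDH1A2 was below the limit for testing, as were ALDH8A1 and ALDH1L2.

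The transcripts of the 10 members were next summed in each library and set beside AKR1B10. The sum was 316, 312 and 316 FPKM in BrM3-shAKR1B10 against 239, 249 and 250.0 FPKM in BrM3-shNC. The means of 315 ± 2.45 and 246 ± 6.43 FPKM (SD, n = 3) differed by 68.7 FPKM, and the groups did not overlap (exact permutation p = 0.1, the smallest possible). Without ALDH3A1 the sum was 157 ± 1.47 against 154 ± 2.37 FPKM. On this scale the difference of 2.45 FPKM lay within the spread of the libraries (exact permutation p = 0.3). The sums were taken on the deposited FPKM only, and a small difference such as this can depend on the scaling. ALDH3A1 made up 50.2 ± 0.856% of the sum in BrM3-shAKR1B10 and 37.3 ± 1.13% in BrM3-shNC. Set beside AKR1B10, whose mean fell by 673 FPKM, the difference in the sum was small. There were 2.90 ± 0.0296 member transcripts per AKR1B10 transcript in BrM3-shAKR1B10 and 0.315 ± 0.0139 in BrM3-shNC, on the FPKM scale. The silenced gene is the denominator, so this ratio rises with the knockdown itself and says little about the members. These are transcript levels, and enzyme activity was not measured in these libraries.

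**Figure D3:**
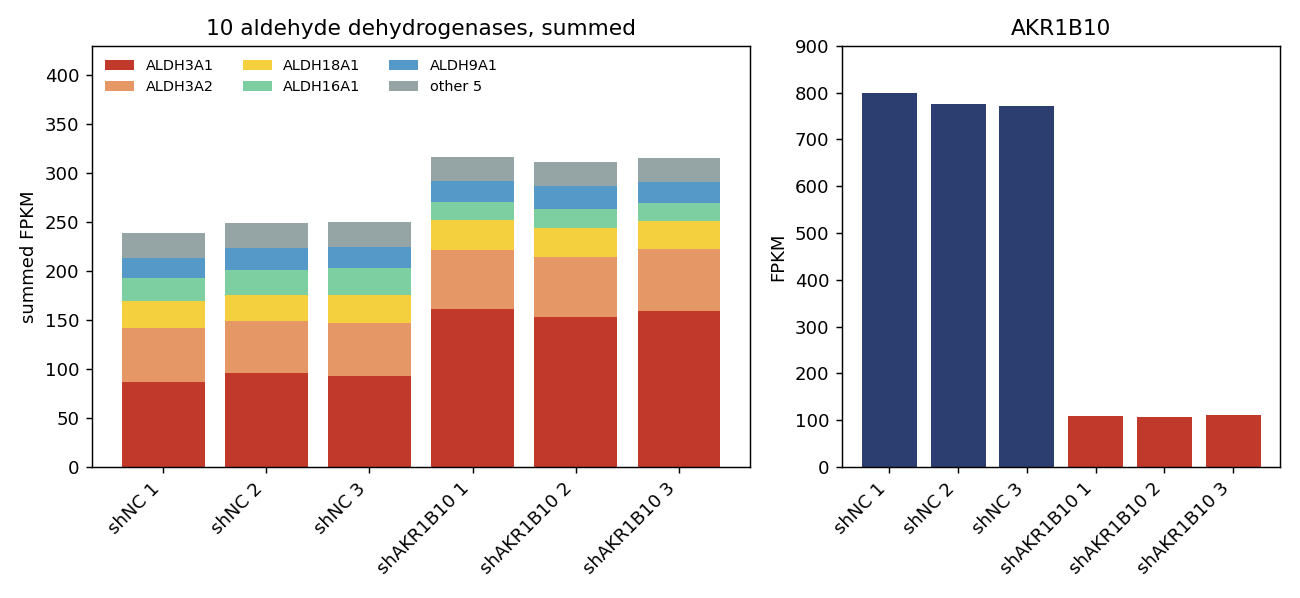
Summed FPKM of the 10 aldehyde dehydrogenases in each library, stacked by gene (left), and the FPKM of AKR1B10 in the same libraries (right), both on linear axes from 0. The stacks reach 239 to 250.0 FPKM in BrM3-shNC and 312 to 316 FPKM in BrM3-shAKR1B10, with most of the difference in the ALDH3A1 segment at the base.

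The metabolic surroundings of the members were read from lists of genes. Of 23 aldehyde reductases, alcohol dehydrogenases and related reductases, 14 were tested, and AKR1B10 was the one called. At an adjusted p under 0.05, 4 of them were higher and 2 lower, beside 19.4% and 23.1% of all genes tested. The median log2 fold change was 0.02. Besides AKR1B10, the lower gene was AKR1B15, named after its values were seen. AKR1B15 was at 3.56 ± 0.245 FPKM in BrM3-shAKR1B10 against 4.86 ± 0.569 FPKM in BrM3-shNC (log2 fold change -0.43, limma, adjusted p = 0.0125). AKR1B1, the aldose reductase, which was below AKR1B10 in the controls and above it in the knockdown, was named after its values were seen. It was at 424 ± 25.7 FPKM in BrM3-shAKR1B10 against 357 ± 9.63 FPKM in BrM3-shNC (log2 fold change 0.25, limma, adjusted p = 0.009), and the difference of 66.7 FPKM between the group means stood beside one of 66.2 FPKM for ALDH3A1.

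Of 10 genes for glyoxalases and glutathione conjugation, 7 were tested, with a median of -0.15. At an adjusted p under 0.05, 1 was higher and 4 were lower, beside 19.4% and 23.1% of all genes tested. GLO1, the glyoxalase that disposes of methylglyoxal, was called lower at 34.9, 33.4 and 34.7 FPKM against 52.1, 52.7 and 49.0 FPKM (log2 fold change -0.58, limma, adjusted p = 9.7e-05). GCLC, the catalytic subunit for glutathione synthesis, was called higher at 16.5, 16.6 and 17.2 FPKM against 11.6, 11.4 and 11.5 FPKM (0.54, adjusted p = 7.2e-05). The list thus held called genes in both directions.

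Of 16 enzymes that release aldehydes, 5 were tested, with a median of 0.16. At an adjusted p under 0.05, 2 were higher and 0 lower, beside 19.4% and 23.1% of all genes tested. PAOX, a polyamine oxidase of the peroxisome, held 1.59, 1.39 and 1.41 FPKM against 0.646, 1.09 and 0.939 FPKM (log2 fold change 0.68, limma, adjusted p = 0.0389), on as few as 27 reads in a library. It met the limit for testing through the knockdown libraries, whose mean was 1.46 FPKM against 0.892 FPKM in the controls, and with no filter on low values the call was lost (adjusted p = 0.0766). LOXL1, a lysyl oxidase and the most abundant of this list by the mean over all 6 libraries (SMOX was higher in the controls, at 10.1 FPKM), was at 13.1 ± 0.616 against 9.64 ± 1.11 FPKM (0.44, adjusted p = 0.00705).

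Around ALDH4A1 and ALDH18A1, 11 genes of proline, ornithine and glutamate metabolism were listed. Of the 7 tested, 2 were higher and 1 was lower at an adjusted p under 0.05, beside 19.4% and 23.1% of all genes tested. Their median was -0.01. PYCR3, a pyrroline-5-carboxylate reductase that acts downstream of ALDH18A1, was called higher at 6.58, 7.48 and 7.21 FPKM against 4.59, 4.61 and 5.29 FPKM (log2 fold change 0.55, limma, adjusted p = 0.00179). OAT, ornithine aminotransferase, was the most abundant, at a log2 difference of -0.11 (adjusted p = 0.0881). PRODH, which starts proline breakdown ahead of ALDH4A1, had group means below 0.005 FPKM, so it was not detectable at this depth.

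Around ALDH7A1 and ALDH9A1, 9 genes of lysine breakdown and carnitine synthesis were listed and 5 were tested, with a median of 0.00. At an adjusted p under 0.05, 1 was higher and 1 lower, beside 19.4% and 23.1% of all genes tested. DHTKD1, a subunit of the 2-oxoadipate dehydrogenase complex in lysine breakdown, was called lower at 6.44, 5.79 and 5.89 FPKM in BrM3-shAKR1B10 against 12.9, 13.2 and 13.1 FPKM in BrM3-shNC (log2 fold change -1.10, SE 0.0499, limma, adjusted p = 2.4e-05). AASS, which opens the main route of lysine breakdown, was listed at 0 in all 6 libraries.

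Around ALDH3A2, 10 sphingolipid and fatty alcohol genes were listed and 9 were tested, with log2 fold changes from -0.46 to 0.36, all short of the fold threshold. At an adjusted p under 0.05, 1 was higher and 3 were lower, beside 19.4% and 23.1% of all genes tested, with a median of 0.08. SGPL1, the sphingosine 1-phosphate lyase whose aldehyde product ALDH3A2 oxidises, was the one higher, at 25.1 ± 0.607 against 22.0 ± 0.491 FPKM (log2 fold change 0.19, limma, adjusted p = 0.00578). SPHK1 (-0.46, adjusted p = 0.00497), FAR2 (-0.39, adjusted p = 0.0119) and FAR1 (-0.21, adjusted p = 0.0177) were the lower genes, named after their values were seen.

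ALDH3A1 is a classical target of the aryl hydrocarbon receptor (AHR), a ligand-activated transcription factor that binds DNA with ARNT. Of 9 genes of this receptor and of the oxidant-responsive factor NRF2 (NFE2L2), 8 were tested. At an adjusted p under 0.05, 5 were higher and 1 was lower, beside 19.4% and 23.1% of all genes tested. Their median log2 fold change was 0.21 against -0.01 over all genes. CYP1B1, a cytochrome P450 that AHR induces, was called higher at 41.6, 38.4 and 40.1 FPKM in BrM3-shAKR1B10 against 12.6, 11.4 and 12.9 FPKM in BrM3-shNC (log2 fold change 1.69, SE 0.0564, limma, adjusted p = 1.0e-05). AHRR, the repressor that AHR induces against itself, was called higher at 4.12, 4.23 and 4.43 FPKM against 1.68, 1.25 and 1.46 FPKM (1.49, adjusted p = 0.00014). The groups did not overlap for either gene.

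Further genes of this list were named after their values were seen. AHR was at a log2 difference of 0.30 (adjusted p = 0.0296), TIPARP, another AHR target, 0.43 (adjusted p = 0.00294), ARNT -0.30 (adjusted p = 0.00222) and NQO1, a target of both factors, 0.12 (adjusted p = 0.0131). CYP1A1, the best known AHR target, stayed at or below 0.0328 FPKM in every library. NFE2L2 and KEAP1, its inhibitor, had log2 fold changes of -0.05 and -0.03 (adjusted p = 0.504 and 0.711). Whether AHR takes part in the ALDH3A1 value was not tested.

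Promoter sequences of RefSeq (GRCh38.p14), from 250 bases before to 50 after each start, were matched for 7 of the 10 members, and ALDH2, ALDH3A1 and ALDH16A1 were not among them. They were searched on both strands for GCGTG, the core that AHR and ARNT bind, and for TGACNNNGC, the core of the antioxidant response element. Of the 7 members, ALDH3A2 held GCGTG, in 2 places of 1 of its promoters, starting 76 bases before and 42 bases after the start. That promoter lies at chr17:19648501-19648800 on the plus strand and is shown because ALDH3A2 passed the test, with the core in capitals.
ALDH3A2 promoter: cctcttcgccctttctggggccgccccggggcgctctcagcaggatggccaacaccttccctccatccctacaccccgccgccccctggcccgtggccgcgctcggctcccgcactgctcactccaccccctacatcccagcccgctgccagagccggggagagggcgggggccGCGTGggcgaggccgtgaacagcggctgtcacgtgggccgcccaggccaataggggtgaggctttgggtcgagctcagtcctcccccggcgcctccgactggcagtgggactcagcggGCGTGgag
GCGTG is a short and common word. It occurred in 36.5% of 35116 promoters of this length, and in 2 or more places in 12.7%. TGACNNNGC occurred in none of the promoters of the 7 members and in 13.3% of all promoters. A match is a description of the sequence and not of binding.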

How the data were processed

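RNA-seq was available for 3 BrM3-shAKR1B10 and 3 BrM3-shNC libraries, grouped by their labels. Per the labels and the study's methods, poly-A RNA was sequenced, aligned with HISAT2 2.0.5 and counted with featureCounts 1.5.0-p3. The authors deposited FPKM values for 58735 genes, whose identifiers and positions all match GENCODE 29 (GRCh38). Strand use and multi-mapped reads are not given in the sources used here. Values multiplied by gene length gave whole reads (tolerance 0.01), from 16964504 to 18709028 per library, and showed that the deposited FPKM include a median-of-ratios scaling.

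The 13150 genes that averaged 1 FPKM or more entered limma 3.58.1 (R 4.3.3) as log2(FPKM + 0.1), with a mean-variance trend and Benjamini-Hochberg adjustment over all genes tested. The pseudocount understates the change of low genes. Sums and ratios were compared by exact two-sided permutation. The scripts were tested on simulated data. Members and lists were chosen with earlier results of these data known. The text names all 10 members, AKR1B10, each called gene of a list and, where fewer than 2 were called, its most abundant gene. Genes named outside that rule were chosen after their values were seen, and these include list genes not detected and neighbouring or overlapping genes. Other settings tried were pseudocounts of 1 and 0.01, no filter, a mean FPKM of at least 5, TPM and quantile scaling, no trend, voom on recovered reads, a replicate block, protein-coding genes only, each library left out, for counts of calls a fold threshold of 1, and for single genes the ratio of mean FPKM, which has no test. Figures and sequences were made in Python 3.11.15.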

Additional observations from a re-analysis of the deposited data

How the results depend on the processing

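ALDH3A1, ALDH3A2 and ALDH16A1 kept their direction under all 17 alternatives and passed the test in each of the 16 that give an adjusted p. Their log2 fold changes ranged from 0.74 to 0.85, from 0.18 to 0.24 and from -0.49 to -0.37, and from 0.74 to 0.82, 0.18 to 0.21 and -0.49 to -0.37 with 1 library left out. ALDH3B1 turned positive under TPM (0.029), quantile (0.024) and voom (0.042), and at 0.025 without BrM3-shAKR1B10 replicate 1 and 0.0086 without BrM3-shNC replicate 3, with a leave-one-out range of -0.029 to 0.025. None of these values passed the test. With protein-coding genes alone, 2 members were lower at an adjusted p under 0.05 (ALDH16A1 and ALDH1B1). The log2 fold change of ALDH1B1 was -0.165 in this and in the main setting, which differ only in the set of genes tested. At a log2 fold threshold of 1, the number of members called higher was 0. Over all genes, 766 were called higher and 980 lower. A pseudocount of 1 gave 497 higher, a mean FPKM of at least 5 gave 290 higher and 532 lower among 7355 genes, and a fold threshold of 1 gave 168 higher and 205 lower. The balance turned to more genes higher than lower under TPM (902 and 873) and voom (976 and 852). No scaling moved the median log2 fold change of all genes past 0.04.

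The replicate numbers did not pair the groups, since the deviations of same-numbered libraries correlated at -0.0155, 0.00388 and 0.00383 and not every library correlated best with its own number. With the replicate block, 719 genes were called higher and 967 lower, and ALDH3A1, ALDH3A2 and ALDH16A1 had adjusted p of 0.00169, 0.0164 and 0.00859. Depth limits ALDH2 most, which stayed below the filter. With no filter its log2 fold change was 0.15 (adjusted p = 0.613), a value that depends on the pseudocount.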
